A study of Mus musculus with 6 samples.

Results

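The expression of 8 genes of the mouse egg coat and egg surface was followed in fully grown oocytes that still held a germinal vesicle, the nucleus of an egg cell arrested in meiosis. They were picked from the table by their symbols, as genes with these functions: the zona pellucida genes Zp1, Zp2 and Zp3, the cortical granule protease gene Astl, the tetraspanin gene Cd9, and the oocyte secreted protein genes Oosp1, Oosp2 and Oosp3. All 8 members were found among the 10896 genes of the authors' deposited table. The series compared oocytes grown in vitro with oocytes grown in vivo, with 3 samples of 50 oocytes in each group, all from (C57BL x CBA) F1 females. The in vitro oocytes grew in follicles that collagenase had freed from ovaries of 2 to 5 females aged 10 to 12 days. These follicles were cultured on membrane inserts in MEM-alpha with penicillin, streptomycin, insulin, transferrin, selenium, 5% fetal bovine serum and 0.01 µg/ml follicle stimulating hormone. The in vivo oocytes were released by needle from ovaries of females aged 7 to 11 weeks into M2 medium with dbcAMP. Culture, donor age and the medium of collection therefore cannot be told apart in any difference below. Each sample was a pool of oocytes, and the labels do not give separate animals or cultures for them, so p-values measure only the spread between these samples.

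The zona pellucida is the glycoprotein coat that the growing oocyte secretes around itself. In the mouse it is built from ZP1, ZP2 and ZP3, of which ZP2 and ZP3 form the filaments and ZP1 links them. After fertilization, ovastacin, the product of Astl, is released from the cortical granules and cleaves ZP2, after which sperm no longer bind the coat. CD9 sits in the membrane of the egg's microvilli and is needed for fusion with sperm. The OOSP proteins are small secreted proteins of the oocyte, and the transcription factor FIGLA, which binds E-boxes as a partner of TCF3, is known to drive the zona genes.

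RefSeq promoter windows were at hand for 5 of the 8 members, Zp3, Astl, Cd9, Oosp1 and Oosp2. The 250 bases before the start are shown for Zp3 and Astl, whose products build or cleave the coat, and for the neighbouring genes Oosp1 and Oosp2, whose levels differed in the other direction. Capitals mark each E-box, searched as CANNTG, a motif whose complement has the same form, so both strands are covered. The windows are from build GRCm38.p6, written 5′ to 3′ on the gene's strand, and lie at chr5:135979855-135980104 (plus strand) for Zp3, chr2:127341386-127341635 (plus strand) for Astl, chr19:11691052-11691301 (minus strand) for Oosp1 and chr19:11660560-11660809 (minus strand) for Oosp2.
Zp3: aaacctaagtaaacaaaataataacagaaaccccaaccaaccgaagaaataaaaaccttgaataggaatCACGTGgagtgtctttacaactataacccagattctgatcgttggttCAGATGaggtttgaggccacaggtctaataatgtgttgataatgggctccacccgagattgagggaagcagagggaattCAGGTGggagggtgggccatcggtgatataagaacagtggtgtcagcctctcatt
Astl: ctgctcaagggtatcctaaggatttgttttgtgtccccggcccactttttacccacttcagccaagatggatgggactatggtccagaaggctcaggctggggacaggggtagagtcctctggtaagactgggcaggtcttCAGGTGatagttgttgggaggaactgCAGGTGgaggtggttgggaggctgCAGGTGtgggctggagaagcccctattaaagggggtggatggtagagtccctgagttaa
Oosp1: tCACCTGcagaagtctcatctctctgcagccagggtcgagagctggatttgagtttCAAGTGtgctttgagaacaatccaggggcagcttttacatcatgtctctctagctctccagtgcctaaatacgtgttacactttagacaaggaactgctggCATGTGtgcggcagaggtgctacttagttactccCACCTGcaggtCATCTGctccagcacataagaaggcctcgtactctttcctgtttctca
Oosp2: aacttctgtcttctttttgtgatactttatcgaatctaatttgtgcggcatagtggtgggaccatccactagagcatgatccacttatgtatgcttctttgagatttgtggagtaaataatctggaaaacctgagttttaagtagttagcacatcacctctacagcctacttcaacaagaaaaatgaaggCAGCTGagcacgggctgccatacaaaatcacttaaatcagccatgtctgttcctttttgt

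The Zp3 window held 3 E-boxes and the Oosp1 window 5, while Oosp2 held 1. The Cd9 window, not shown, held 3, of which 1 was CAGGTG. The 3 E-boxes of Astl were all CAGGTG. Astl has 2 annotated starts, and the window before its other start held 0 E-boxes. The letters CAGGTG, or CACCTG as the other strand reads, occurred 1 time before Zp3, 2 times before Oosp1 and 0 times before Oosp2. Among 32851 promoter windows of the same length, 66.2% held CANNTG and 17.2% held CAGGTG on either strand, so an E-box alone is common, and a match is a description of the letters only.

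Values per sample were obtained as follows. The authors' deposited table gives each gene 1 mean of normalised reads per group, without a spread. Each mean was taken to be a sum of whole reads weighted by library, which failed for 659 genes that had no such solution. On this assumption the reads of the 3 libraries could be recovered for 10207 genes, 7 of the members among them. The libraries held between 3672817 and 5717916 recovered reads in those genes. They are called A, B and C within each group, because nothing ties a library to a replicate number of the labels. For Zp3, whose mean is the highest of the members, 5 of 40 deliberately shifted values also gave a match (0.125 per value), and for Zp1 1 of 40 did, so the recovered reads of Zp3 are the least certain. For the other 5 genes 0 of 40 shifted values gave a match. These reads carried no molecular identifiers and came from cDNA amplified from 10 ng of total RNA.

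Libraries stood apart in ways that touch the members. Among 3302 recovered genes with a mean of at least 300, in vitro library A exceeded both other in vitro libraries 1.5-fold in 160 genes, among them Zp1 and Zp3. In vitro library B did so in 54 genes, among them Oosp1, Oosp2 and Oosp3, and in vitro library C in 3. In vivo the corresponding numbers were 11, 0 and 49 for libraries A, B and C, and no member was among them. Oocyte marker genes were measured in both groups (12 of 12 listed genes were in the table). Of all genes, 8.31% were lower in vitro by the PPEE. Of the 12 oocyte markers 3 were lower by it in the authors' deposited table, Nlrp5 (2.89-fold), Kit (1.84-fold) and Bmp15 (1.76-fold). Limma voom called 2 of the 8 recovered ones higher and 1 lower in vitro, namely Zar1 (5.27-fold higher by the means, limma voom adjusted p = 0.0215), Mos (1.44-fold higher, limma voom adjusted p = 0.0393) and Kit. Zar1 varied widely, with 178, 782 and 470 normalised reads in vitro and 101, 66.4 and 104 in vivo. The PPEE called neither Zar1 (0.193) nor Mos (0.313). Zar1 and Mos are named after their values were seen. Of 18 granulosa and cumulus cell markers 8 were in the table, and their summed recovered level ranged from 369 to 479 normalised reads in vitro and from 197 to 215 in vivo. The 4 called by the PPEE, Inhba, Hsd3b1, Fshr and Inha, were all higher in vitro, beside 6.75% of all genes called higher. Fshr and Hsd3b1 were low, with means of 12.4 and 28.0 in vitro against 2.45 and 3.34 in vivo. Limma voom did not call Fshr (limma voom adjusted p = 0.0662). Of those the PPEE did not call, Cyp19a1 and Hsd17b1 were also higher in vitro by their means. Kitl (39.4 in vitro against 42.5 in vivo) and Cyp11a1 (5.84 against 9.76) were lower. The other 10 of these markers, Amh, Foxl2, Inhbb, Lhcgr, Npr2, Nr5a1, Star, Has2, Ptx3 and Tnfaip6, had no row in the table. Of 12 theca, stroma and blood markers 2 were in the table. Pecam1 was called, 1.51-fold lower in vitro. Cd68 was not called and had the higher mean in vitro (14.1 against 10.8 in vivo, PPEE 0.818). The part of these cells in the members' values was not tested. In pooled oocytes, fewer cells of a type and less RNA per cell cannot be told apart.

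The members were among the abundant transcripts of these oocytes, with the zona genes at the top. Per kilobase of gene length, the group means of the authors' deposited table placed Zp3 at rank 5 of 10896 genes in vivo (21468 normalised reads per kb) and at rank 11 in vitro (13490). Zp1 stood at rank 22 in vivo (9006 per kb) and 44 in vitro (5879), and Zp2 at rank 46 in vivo (6170) and 55 in vitro (5329). Astl stood at rank 171 in vivo (1987 per kb) and 255 in vitro (1490). The lowest member was Cd9 in vitro, at percentile 93.6 of all genes, and Oosp3 in vivo, at percentile 94.0.

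The order of the levels differed between the groups below the zona genes. Among oocytes grown in vivo it ran Zp3, Zp1, Zp2, Astl, Oosp1, Cd9, Oosp2 and Oosp3. The libraries of neighbours did not overlap from Zp3 down to Astl, while Astl and Oosp1 overlapped, and so did Oosp2 and Oosp3. Among oocytes grown in vitro the order was Zp3, Zp1, Zp2, Oosp1, Astl, Oosp3, Oosp2 and Cd9, and the libraries of Zp1 and Zp2 overlapped, as did those of Astl with Oosp3 and of Oosp3 with Oosp2. Oosp1 went from rank 229 of all genes in vivo (1575 normalised reads per kb) to rank 117 in vitro (2831). Oosp3 went from rank 654 (684 per kb) to rank 261 (1454), and Oosp2 from rank 562 (773 per kb) to rank 314 (1276). Cd9 stood at rank 557 in vivo (776 per kb) and 694 in vitro (653).

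**Figure D1:**
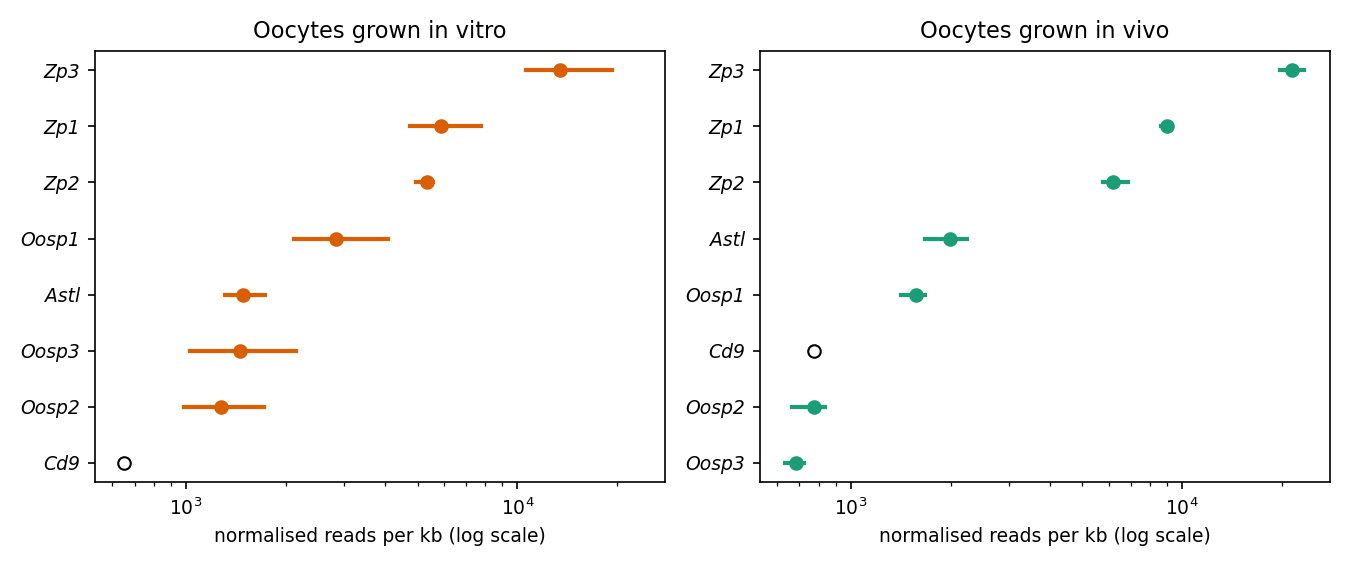
Level of each member per kilobase of gene length, in normalised reads per kb on a log axis, for oocytes grown in vitro (left) and in vivo (right). Points are group means, lines span the lowest to the highest of 3 libraries, and Cd9 (open circle) has no line. Zp3 led in both groups, at 13490 in vitro and 21468 in vivo.

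Zp1 and Zp3 were lower and Oosp1, Oosp2 and Oosp3 were higher in oocytes grown in vitro when tested over the recovered libraries, while Zp2 and Astl did not pass the test. By limma voom fitted over all 10207 recovered genes, with a Benjamini-Hochberg adjusted p below 0.05, 5 of the 7 testable members were called, 3 higher and 2 lower in vitro. Of all recovered genes, 11.9% were called (5.85% higher and 6.08% lower), and of those with a mean of at least 400 normalised reads 17.4%. The libraries of the 2 groups did not overlap in 6 of the 7 members, against 36.1% of all recovered genes and 43.8% of those with a mean of at least 400. By the authors' own measure, a PPEE read here as the posterior probability of equal expression, the only member below 0.05 in the authors' deposited table was Cd9, lower in vitro. That is 1 of 8 members beside 15.1% of all genes, or 8.31% counting lower genes only. The 2 measures thus called different members, and each member's values are given below.

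**Figure D2:**
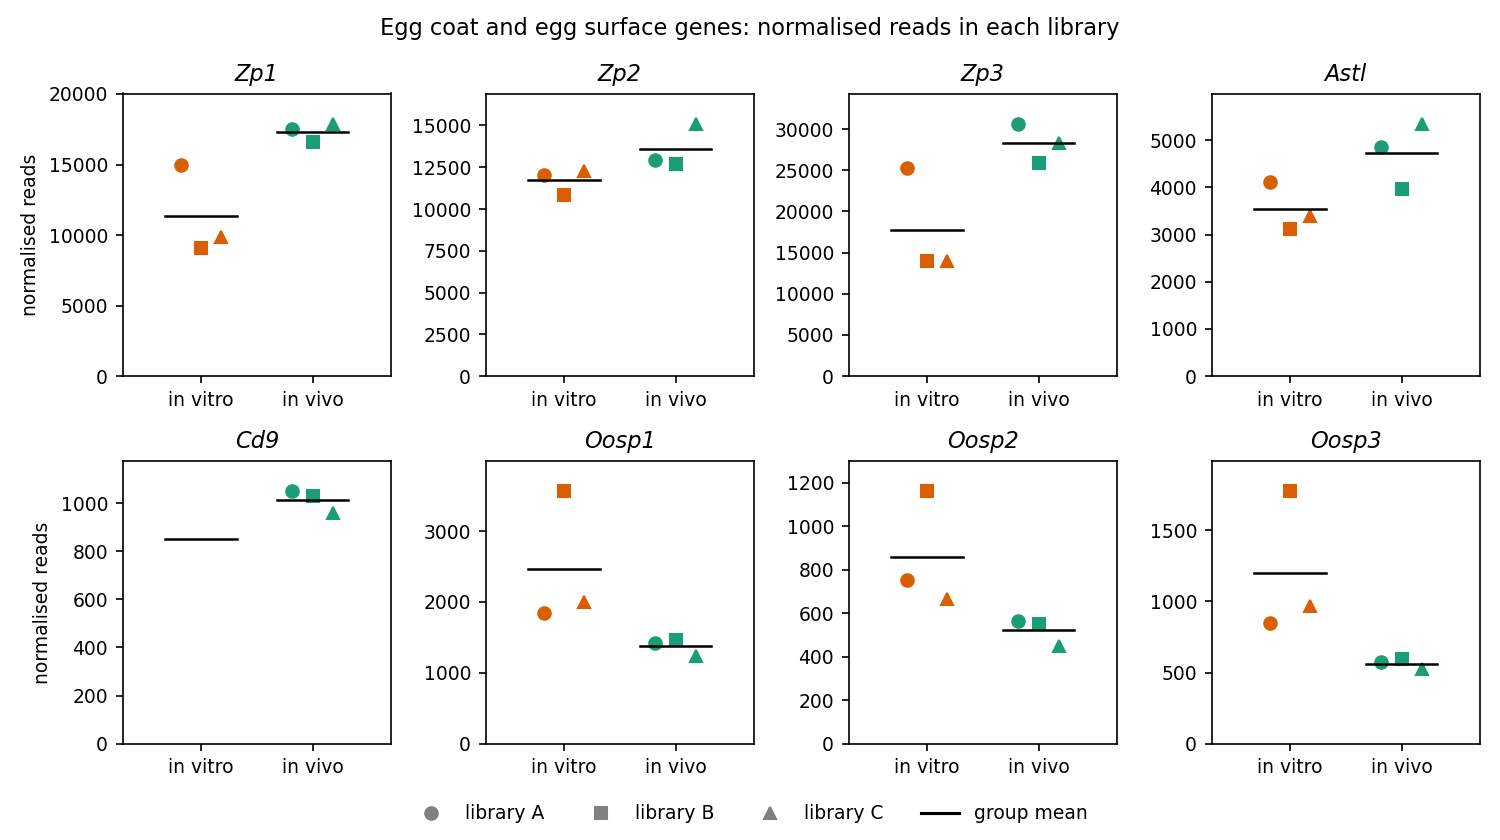
Normalised reads of each member in each recovered library (symbols, libraries A, B and C) and the group mean of the deposited table (black line), on axes that start at 0. Zp1 and Zp3 lay lower in all 3 in vitro libraries than in any in vivo library, and the 3 Oosp genes lay higher. For Cd9 the in vitro libraries could not be recovered, and its in vivo points are 1 solution that may be a chance match.

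Zp1 (gene identifier 22786, chromosome 19) had 14973, 9116 and 9861 normalised reads in in vitro A, B and C and 17531, 16593 and 17886 in the in vivo libraries. All in vitro libraries were below all in vivo libraries, and library A was the closest to them. The means were 11316 ± 3188 in vitro and 17337 ± 668 in vivo (SD over libraries, n = 3 each), 1.53-fold lower in vitro. Limma voom gave a log2 change of -0.64 with a standard error of 0.15 and an adjusted p of 0.0264, and the authors' deposited table gave a PPEE of 0.344.

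Zp3 (gene identifier 22788, chromosome 5) had 25321, 13944 and 14033 normalised reads in vitro and 30637, 25911 and 28274 in vivo. In vitro library A came within reach of the lowest in vivo library, while B and C were near the same lower level. The means were 17766 ± 6543 in vitro and 28274 ± 2363 in vivo (SD over libraries, n = 3 each), 1.59-fold lower in vitro. The log2 change by limma voom was -0.72 with a standard error of 0.19 and an adjusted p of 0.0339. A PPEE of 0.913. stood in the authors' deposited table

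Both of these calls depended on every library but 1. Without in vitro library A, the high one, the log2 change grew to -0.87 for Zp1 (limma voom adjusted p = 5.05e-05) and to -1.01 for Zp3 (limma voom adjusted p = 1.97e-05). Leaving out any other library ended the call. The limma voom adjusted p of Zp1 was then 0.0723 without in vitro library B, 0.121 without in vitro C, 0.108 without in vivo A, 0.0957 without in vivo B and 0.0564 without in vivo C. For Zp3 the corresponding values of the limma voom adjusted p were 0.106, 0.138, 0.125, 0.0970 and 0.0663. The change stayed negative in all of these fits, from -0.49 to -0.87 for Zp1 and from -0.55 to -1.01 for Zp3. The loss of calls was not particular to these genes. Over all genes limma voom called 1218 with 6 libraries and 3061 without in vitro library A. It called 257 without in vitro B, 4 without in vitro C, and 0, 34 and 738 without in vivo A, B and C.

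Zp2 (gene identifier 22787, chromosome 7), the target of ovastacin, differed least of the recovered members. It had 12042, 10851 and 12280 normalised reads in vitro and 12959, 12664 and 15100 in vivo. Every in vitro library was below every in vivo library, but the gap between 12280 and 12664 was smaller than the spread within either group. The means were 11724 ± 766 in vitro and 13574 ± 1329 in vivo (SD over libraries, n = 3 each), 1.16-fold lower in vitro. The log2 change by limma voom was -0.21 with a standard error of 0.11 and an adjusted p of 0.203. A PPEE of 0.931. stood in the authors' deposited table

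The proportions of the zona transcripts differed between libraries. Per kilobase, Zp3 stood at 3.51, 2.15 and 1.91 times Zp2 in the in vitro libraries and at 3.95, 3.42 and 3.13 times in the in vivo libraries. In vitro library A fell inside the in vivo range and libraries B and C below it. Zp1 stood at 1.42, 0.960 and 0.918 times Zp2 in vitro and at 1.55, 1.5 and 1.35 times in vivo, with the same library inside the range. Zp3 stood at 2.08 to 2.47 times Zp1 in vitro and at 2.28 to 2.55 times in vivo, and these ranges overlapped.

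Astl (gene identifier 215095, chromosome 2), which encodes ovastacin, had 4122, 3112 and 3391 normalised reads in vitro and 4853, 3972 and 5347 in vivo. In vitro library A lay above in vivo library B, so the groups overlapped. The means were 3541 ± 521 in vitro and 4724 ± 696 in vivo (SD over libraries, n = 3 each), 1.33-fold lower in vitro. The log2 change by limma voom was -0.41 with a standard error of 0.15 and an adjusted p of 0.0803. A PPEE of 0.816. stood in the authors' deposited table Without in vitro library A the limma voom adjusted p of Astl was 0.00872, at a log2 change of -0.53.

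Cd9 (gene identifier 12527, chromosome 6) was the only member called by the PPEE. In the authors' deposited table its means were 852 normalised reads in vitro and 1013 in vivo, 1.19-fold lower in vitro, with a PPEE of 4.45e-06. The in vivo mean had 19 whole-read solutions at any spread and 1 that the PPEE allows. That one is 1298, 1163 and 850 reads, which are 1049, 1030 and 960 normalised reads. Of 400 shifted in vivo means, 0.05 solutions per mean were found, so it may be a chance match. The in vitro mean had 1 whole-read solution at any spread and 0 that the PPEE allows. The model of whole reads thus failed for Cd9 in vitro, and Cd9 has no test over libraries. The PPEE allows a pooled SD between libraries of only 3.29% to 3.93% of the mean. The pooled SD of the other members was 6.89% of the mean for Zp2, 12.4% for Astl, 13.3% for Zp1, 17.8% for Zp3, 22.1% for Oosp2, 28.2% for Oosp1 and 32.7% for Oosp3. By fold Cd9 differed less between the groups than any member but Zp2, and its pooled SD as implied by the PPEE was the lowest of the members. Cd9 was also the only member that shares 50-base windows with transcripts of another gene, 14 of 1179 windows, all with the pseudogene Cd9-ps. Whether reads of that copy enter its means was not tested.

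Oosp1, Oosp2 and Oosp3 encode small secreted oocyte proteins and are neighbours on chromosome 19, with no other measured gene between them in the RefSeq order. Oosp1 (gene identifier 170834) had 1851, 3562 and 2001 normalised reads in vitro and 1425, 1460 and 1241 in vivo. All in vitro libraries exceeded all in vivo libraries, and library B stood far above the other in vitro libraries. The means were 2471 ± 947 in vitro and 1375 ± 117 in vivo (SD over libraries, n = 3 each), 1.80-fold higher in vitro. The log2 change by limma voom was 0.78 with a standard error of 0.21 and an adjusted p of 0.0385. A PPEE of 0.863. stood in the authors' deposited table

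Oosp2 (gene identifier 225922) had 752, 1160 and 664 normalised reads in vitro and 564, 550 and 447 in vivo. Library B was again the high in vitro library. The means were 858 ± 265 in vitro and 521 ± 63.9 in vivo (SD over libraries, n = 3 each), 1.65-fold higher in vitro. The log2 change by limma voom was 0.68 with a standard error of 0.20 and an adjusted p of 0.0479, the closest to the threshold of the called members. A PPEE of 0.534. stood in the authors' deposited table With libraries scaled by total recovered reads, the limma voom adjusted p of Oosp2 was 0.0514.

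Oosp3 (gene identifier 225923) had 849, 1774 and 966 normalised reads in vitro and 572, 595 and 523 in vivo. It had the largest fold of the members: its means were 1196 ± 503 in vitro and 563 ± 36.9 in vivo (SD over libraries, n = 3 each), 2.12-fold higher in vitro. The log2 change by limma voom was 1.01 with a standard error of 0.24 and an adjusted p of 0.0249. A PPEE of 0.616. stood in the authors' deposited table Per kilobase, Oosp1 stood at 2.05, 1.89 and 1.95 times Oosp3 in the in vitro libraries and at 2.35, 2.31 and 2.24 times in vivo. These ratios did not overlap between the groups, although between in vitro libraries the level varied up to 2.09-fold for Oosp3 and 1.92-fold for Oosp1. The other ratios of the Oosp genes did overlap. Oosp1 stood at 1.90 to 2.37 times Oosp2 in vitro and at 1.95 to 2.14 times in vivo. Oosp3 stood at 0.924 to 1.25 times Oosp2 in vitro and at 0.828 to 0.956 times in vivo. With 3 libraries against 3, an exact permutation test of a single gene or ratio cannot go below 0.1.

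The calls of the Oosp genes also rested on single libraries. Without in vitro library B, the high one, the log2 change was 0.48 for Oosp1 (limma voom adjusted p = 0.0580), 0.44 for Oosp2 (limma voom adjusted p = 0.116) and 0.68 for Oosp3 (limma voom adjusted p = 0.0350), so only Oosp3 kept its call. Without in vitro library A all 3 kept theirs (limma voom adjusted p of 0.00163, 0.0105 and 0.000505 for Oosp1, Oosp2 and Oosp3). Leaving out in vitro library C gave limma voom adjusted p-values of 0.0993, 0.0917 and 0.0860 for Oosp1, Oosp2 and Oosp3. Leaving out in vivo library A, B or C gave 0.120, 0.117 and 0.0918 for Oosp1, 0.124, 0.133 and 0.127 for Oosp2, and 0.104, 0.0922 and 0.0556 for Oosp3 by the same test. Calls over all genes also fell in every one of these fits but that without in vitro library A, as given above. All 3 Oosp genes stayed higher in vitro with any library left out.

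**Figure D3:**
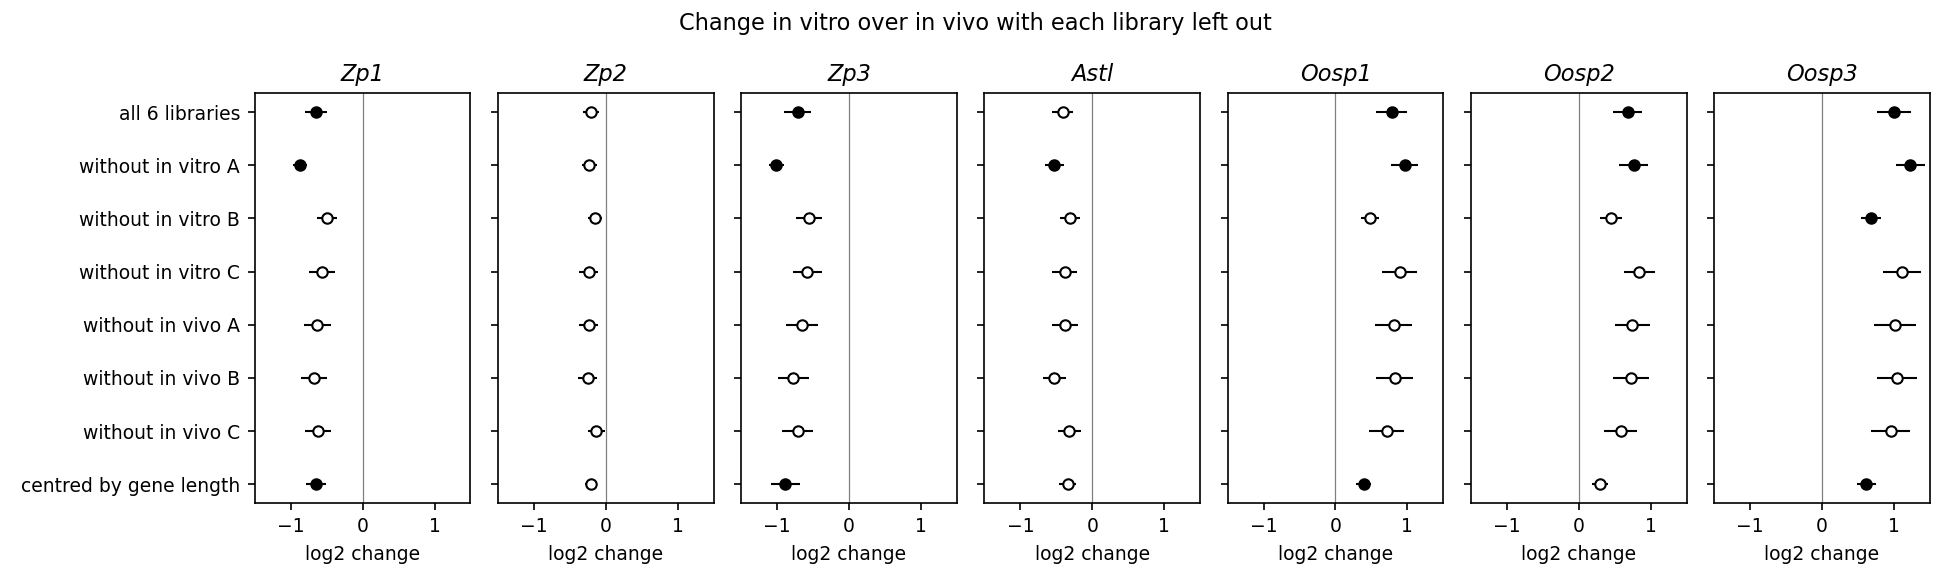
Log2 change in vitro over in vivo (x axis) of the 7 testable members from limma, with all 6 libraries, with each library left out, and with libraries centred by gene length. Bars are standard errors and filled circles have an adjusted p below 0.05. No member changed direction, and with in vitro library A left out 6 members passed, against 5 with all libraries.

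The change between the groups moved with gene length, and the Oosp genes are short. Oosp2 measures 673 bases in the authors' deposited table, Oosp3 823 and Oosp1 873, while Cd9 measures 1306, Zp3 1317, Zp1 1925, Zp2 2200 and Astl 2377. Among recovered genes with a mean of at least 50, the median log2 change in vitro over in vivo was 0.60 for 85 genes under 700 bases and 0.38 for 265 genes of 700 to 1000 bases. Each class excludes its upper bound. The median was 0.20 for 681 genes of 1000 to 1500 bases, 0.03 for 1730 genes of 1500 to 2500 bases, and -0.10 and -0.06 in the longer classes. In vitro library B carried this pattern within its group. Its genes under 700 bases lay a median of 0.63 (log2) above the in vitro mean and its genes of 700 to 1000 bases 0.38 above, while libraries A and C lay below. Oosp1, Oosp2 and Oosp3 lay 0.59, 0.48 and 0.65 above this mean of log2 values in library B.

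Set beside genes of like length, the members kept their directions. Oosp3 had a larger log2 change than 98.9% and Oosp1 than 96.6% of the 265 genes of 700 to 1000 bases, whereas Oosp2 was larger than 63.5% of the 85 genes under 700 bases. Zp3 had a smaller (more negative) value than all but 1.76% of the 681 genes of its length class. In the class of 1730 genes of 1500 to 2500 bases, 5.43% lay below Zp1, 12.4% below Astl and 26.5% below Zp2. When each library was centred within classes of gene length before a limma fit, an alternative chosen after seeing the data, the log2 change of Oosp1 was 0.39 (adjusted p = 0.0396), that of Oosp2 0.29 (adjusted p = 0.107) and that of Oosp3 0.62 (adjusted p = 0.0216). The same limma fit gave -0.65 for Zp1 (adjusted p = 0.0212) and -0.88 for Zp3 (adjusted p = 0.0256). The Oosp changes were thus over 1.5 times smaller on this scale and Oosp2 lost its call, while Zp1 and Zp3 kept theirs. What produced the length pattern was not tested.

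**Figure D4:**
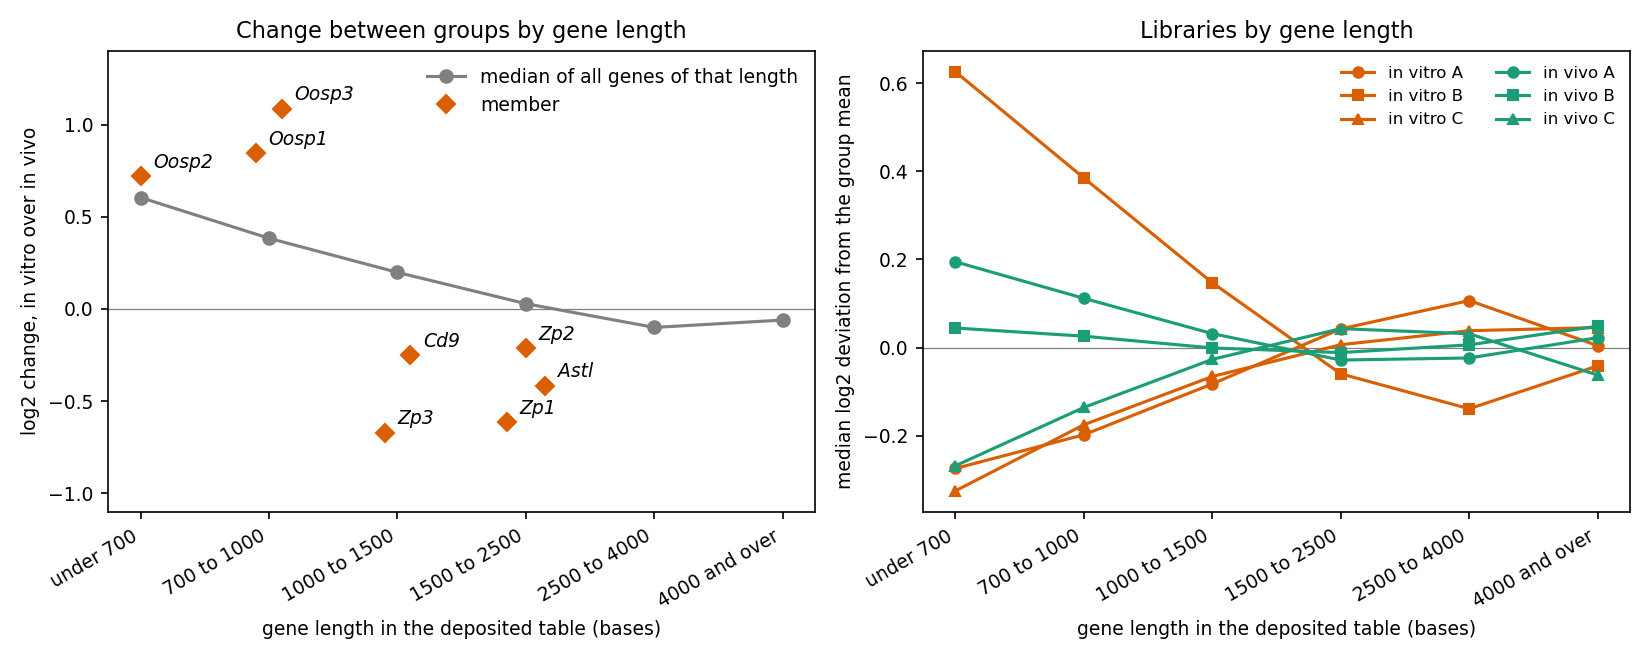
Left, median log2 change in vitro over in vivo of all recovered genes with a mean of at least 50 in classes of gene length (grey) and the change of each member (diamonds, spread sideways for reading). Right, median deviation of each library from the mean of its group's log2 values in the same classes. The shortest genes reached 0.60 on the left and in vitro library B reached 0.63 on the right, and the Oosp genes lie in the 2 shortest classes.

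The genes closest to each member by level in both groups were found by the distance between the log2 group means per kilobase, over 2 values per gene, which says nothing of shared control. The 3 nearest genes were Oas1e, Fbxw19 and Padi6 for Zp1 (distance 0.27 to 0.33), Oas1d, Oog4 and Fbxw18 for Zp2 (0.07 to 0.11), and Plat, E330021D16Rik and Gdf9 for Zp3 (0.26 to 0.65). Those of Astl were Fbxw26, Txnip and Fam151a, and those of Cd9 were Tmem109, BC030867 and Arhgef16. For Oosp1 they were Gm16702, Uchl1 and Npm1, for Oosp2 Cfl1, Zar1l and Gm14420, and for Oosp3 Cfl1, Oosp2 and Rps2, so Oosp2 was the single member found among the nearest genes of another.

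Other genes of these pathways were counted in lists. By the PPEE, 6.75% of all genes were higher and 8.31% lower in vitro. By limma voom the shares of all recovered genes were 5.85% and 6.08%. Each count of a list below is to be read beside these shares. Limma voom called 1218 genes in all with 6 libraries, but 0 without in vivo library A (2480 at an unadjusted p below 0.05), 4 without in vitro C and 34 without in vivo B, so that every limma voom call on a listed gene was lost without in vivo library A.

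Genes that act on zona transcription showed no common direction. By the PPEE in the authors' deposited table, 1 of 11 measured genes was higher and 1 lower in vitro, beside 6.75% and 8.31% of all genes. By limma voom 1 of 10 recovered genes was higher and 2 lower. Figla, the E-box factor of the zona genes, was low and varied widely, with 26.7, 47.7 and 21.1 normalised reads in vitro and 24.3, 27.5 and 5.65 in vivo (limma voom adjusted p = 0.297). Its partner gene Tcf3 had means of 129 and 116 in vitro and in vivo (limma voom adjusted p = 0.684). Nobox, an oocyte homeobox factor, had 10530.5, 6237 and 8835 normalised reads in vitro against 11253, 11637 and 11072.5 in vivo (limma voom adjusted p = 0.0803). Tcf4, a further E-box factor, was 2.86-fold higher in vitro (PPEE 2.31e-11) and Gtf2a1l, which encodes a TFIIA subunit of germ cells, 1.53-fold lower (PPEE 4.87e-12) in the authors' deposited table. Sohlh1 had no row in the table.

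Among 20 genes for cleaving, folding and exporting secreted proteins, 5 were lower and 1 higher in vitro by the PPEE in the authors' deposited table, and 3 and 1 of 19 by limma voom. The median log2 change was -0.25, beside 0.02 over all genes. Hspa5, the chaperone BiP of the endoplasmic reticulum, had 2642, 2408 and 3021 normalised reads in vitro and 4076, 3835 and 4322 in vivo. These libraries did not overlap, and the gene was 1.52-fold lower in vitro (limma voom adjusted p = 0.0180). Pcsk6, a proprotein convertase, was 2.84-fold lower (limma voom adjusted p = 0.0161). Furin, a convertase that can cleave zona precursors, stood at 295 ± 9.70 in vitro and 234 ± 43.4 in vivo (SD over libraries, n = 3 each; limma voom adjusted p = 0.198). Sar1b, a coat protein of transport vesicles, was 1.47-fold higher (limma voom adjusted p = 0.0311), and Sec23a, of the same coat, 1.31-fold lower (PPEE 0.0310 in the authors' deposited table, limma voom adjusted p = 0.0990). Of 16 measured genes of glycan synthesis 1 was called by the PPEE in the authors' deposited table, B3gnt2, 1.22-fold higher, and 0 of 15 by limma voom, where 3 had an unadjusted p below 0.05.

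Genes of cortical granule transport and release, the store of ovastacin, included 4 lower and 1 higher of 17 by the PPEE in the authors' deposited table, and 1 lower and 1 higher by limma voom. The shares over all genes were 8.31% lower and 6.75% higher by the PPEE, and 6.08% and 5.85% by limma voom. Rab11b, a GTPase of vesicle traffic, had 223, 120 and 151 normalised reads in vitro against 332, 342 and 322 in vivo, 2.01-fold lower (limma voom adjusted p = 0.0181). Stxbp3a, a syntaxin-binding protein, was 1.60-fold lower (PPEE 0.00577), and the myosin genes Myo5a and Myo5b were 1.41-fold and 1.31-fold lower (PPEE 3.19e-05 and 0.00159) in the authors' deposited table. The higher gene was Vamp3 by the PPEE (1.29-fold, PPEE 0.00969) and Rab6a by limma voom (2.19-fold, limma voom adjusted p = 0.0444, PPEE 0.325). Vamp3 and Rab6a are named after their values were seen. Rab27a, a granule GTPase, and Snap23, a membrane fusion protein, had limma voom adjusted p-values of 0.481 and 0.291. Fetub, an inhibitor of ovastacin made mostly by the liver, stood at 477 ± 70.7 in vitro and 459 ± 45.4 in vivo (SD over libraries, n = 3 each; limma voom adjusted p = 0.854).

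On the egg surface, the sperm receptor gene Izumo1r, which encodes JUNO and is listed in the table as Folr4, had 544, 469 and 326 normalised reads in vitro and 588, 544 and 534 in vivo. The highest in vitro library reached the level of in vivo libraries B and C, the means were 1.24-fold lower in vitro, and neither measure called it (PPEE 0.828 in the authors' deposited table, limma voom adjusted p = 0.232). Piga, which starts the synthesis of the lipid anchor that holds JUNO, had means of 368 in vitro and 488 in vivo (limma voom adjusted p = 0.169). Of 24 genes of that anchor's synthesis 2 were lower by the PPEE in the authors' deposited table, Pigh (2.35-fold) and Pigb (1.95-fold). That is near the 8.31% of all genes called lower. Cd81, a tetraspanin gene related to Cd9 that also acts in fusion, had 14.7, 13.5 and 13.6 normalised reads in vitro and 27.5, 20.4 and 37.3 in vivo, groups that did not overlap but did not pass the test (limma voom adjusted p = 0.129). The CD9 partner genes Ptgfrn and Igsf8 had means of 40.5 and 15.1 in vitro against 12.8 and 5.46 in vivo (limma voom adjusted p = 0.0429 and 0.103). Of 13 measured genes of sperm binding and fusion 2 were higher and 1 lower by the PPEE in the authors' deposited table, namely Ptgfrn, the integrin gene Itgav and the receptor gene Mertk (1.69-fold lower). Itgav had 8.27, 20.7 and 11.2 normalised reads in vitro and 2.43, 2.66 and 2.26 in vivo. Of 14 other tetraspanin genes 1 was higher, Tspan13 (1.29-fold), and 1 lower, Tspan3 (1.47-fold), in the authors' deposited table. Of 5 measured genes with a zona domain or a zona name outside the members, Zp3r, a sperm protein gene despite its name, was 3.58-fold lower (limma voom adjusted p = 0.0243) and Tgfbr3 1.36-fold lower (PPEE 0.000746). Zp3r was low in both groups, with means of 10.1 in vitro and 36.3 in vivo.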

How the data were processed

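RNA-seq was made from 6 samples, 3 per group. Per the labels' protocols, a low input kit amplified the cDNA of 10 ng of RNA. BWA, with no version, and build mm9 are named in the submitters' processing notes. The authors deposited, for 10896 genes, a signal per group (the mean of normalised reads), the gene's length, the log2 ratio of both means (in vivo first) and a PPEE, whose tool is not given in the sources used here. It was read as the posterior probability of equal expression, and a gene was called below 0.05. Recomputing the deposited log2 ratio needed 0.599 added to each mean.

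Recovering the reads of each library was added after the data had been seen. A group mean was taken to be a sum of whole reads times 1 step per library, and the steps were found from repeated differences among low means. An empirical Bayes model of negative binomial counts, its prior fitted on part of the low genes, was checked on 2901 genes held out. It came close to the deposited PPEE for 2892 of them (99.7%), within an allowance wider than the rounding at 9 decimals. Genes with a pooled variance at most their mean, nearly all with a PPEE of at least 0.99, were counted in this share. The PPEE then served to choose among whole-read solutions. Of all genes 10207 (93.7%) had a single solution, 659 had no solution, 20 had several and 10 had too many candidates. Of 1500 genes with shifted values 0 matched. Tested on simulated data, 97.7% of 7008 genes were solved and 100% of those correctly. The simulation drew whole reads and made the PPEE with the same model and prior. It therefore tests the search only, and cannot show that the real means are sums of whole reads.

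Normalised reads are reads divided by size factors of 0.806 to 1.24. All recovered genes were tested with limma 3.58.1 (voom, R 4.3.3), 2-sided, with Benjamini-Hochberg adjustment over all of them. The planned design had named a count model for values per sample, but the deposited columns hold no counts, so limma was used. On data simulated for this comparison (10207 genes), it found 44.0% of planted 1.5-fold changes and 70.0% of 2-fold ones. In the authors' PPEE, the spread between libraries enters as 1 pooled variance per gene. Of 1549 recovered genes whose pooled variance was at most their mean, 1543 had a PPEE of at least 0.99. Alternatives covered pseudocounts, scaling, thresholds, each library left out, a limma trend fit and gene length. Gene lists were matched through RefSeq names. Genes to name, beside the members, were at most 4 called by the PPEE per list with the largest change, a few set by name, and the 3 nearest by level. No measured value enters the rule that picks the members, but the members and lists were chosen with earlier results of these data known.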

Additional observations from a re-analysis of the deposited data

How the results depend on the processing

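The members kept their direction under every alternative run. Of 110 repeats of single member values, 83 kept direction and side of the threshold, 26 kept direction and lost the call, and 1 gained it, Astl without in vitro library A. The 83 overstate how stable the calls were. Repeats over pseudocounts and scalings of the group means reused the deposited PPEE, so their side of the threshold could not change. A minimum mean of 5 gave the same member values as the main fit. The number of members called by limma voom, 5 of 7, was 5 with a trend fit and with a minimum mean of 5, 4 with libraries scaled by total recovered reads, and 4 with libraries centred by gene length. With each library left out in turn it ranged from 0 to 6, and fewer samples then entered the fit. It was 6 when in vitro library A was left out and 1 when in vitro B was. It was 0 without in vitro library C or without in vivo library A, B or C, where 5, 5, 6 and 5 members still had an unadjusted p below 0.05. Over all genes limma voom called 1218, and 0 to 3061 with a library left out. A required fold of 1.5 lowered the members called by the PPEE from 1 to 0 and the called genes of the related lists from 31 to 20 of 141, by construction. The members' median log2 change of -0.23 ranged from -0.28 to -0.23 over pseudocounts and scalings. No paired analysis was possible because the recovered libraries carry no replicate number. In the simulation with 3 libraries per group, over genes of many levels, 44.0% of 1.5-fold and 70.0% of 2-fold changes were found. Zp2 and Astl are among the abundant genes and differed by 1.16-fold and 1.33-fold. These shares therefore do not say how often changes like theirs would be missed.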
